A study of Mus musculus with 10 samples.

Results

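The effector cytokine genes of mouse Th17 cells described here were Il17a, Il17f, Il21, Il22, Il24, Il10, Csf2 and Ifng. They were chosen by gene symbol, as cytokines that Th17 cells secrete, including those tied to pathogenic or regulatory forms of these cells. All 8 symbols were found among the 17493 genes of the deposited table. They were measured in Th17 cells that received TMP269 before harvest, set against control Th17 cells labelled DMSO. TMP269 is a small molecule that inhibits class IIa HDACs, the class of histone deacetylases to which HDAC4 and HDAC7 belong. Both groups were grown from naive CD4+ T cells of the spleens of C57BL/6 mice. The labels' protocols give plate-bound antibodies to CD3 and CD28, 20 ng/mL of IL-6, 2.5 ng/mL of TGF-beta and a culture of 48 to 72 h. They name no other added cytokine, and no source used here gives the dose of TMP269, the length of exposure or the age of the mice. Each group had 2 RNA libraries. The labels do not say whether these came from separate mice or cultures, so p-values measure the spread between these libraries, which may be technical. The cells are a culture model of Th17 differentiation, and no cells taken from inflamed tissue were measured.

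IL-17A and IL-17F are related proteins that pair as homodimers or as a heterodimer and act on epithelial and stromal cells through the receptor subunits IL-17RA and IL-17RC. IL-21 acts back on T cells and on B cells through IL-21R and the common gamma chain. IL-22, IL-24 and IL-10 are members of the IL-10 family, of which the first acts on epithelia and the last restrains inflammation. GM-CSF, encoded by Csf2, and interferon-gamma, encoded by Ifng, are the cytokines most often used to mark pathogenic Th17 cells, whereas IL-10 marks regulatory ones. Differentiation with IL-6 and TGF-beta is known to give Th17 cells of the second kind.

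The table's values are read counts divided by 1 size factor per library, called normalised reads below. Whole reads were recovered from them, and the total was 20837231 and 23259102 in TMP269 replicates 1 and 2, against 25321455 and 20007042 in DMSO replicates 1 and 2. DMSO replicate 2 stood apart in the share of reads from the ribosomal RNA gene Rn45s, 2.20%, against 0.716% to 1.12% in the other libraries. The labelled cell type was checked against its markers. The T cell genes Cd3d, Cd3e, Cd3g, Cd4, Cd2, Cd5, Cd28 and Lck summed to 62844 and 64315 normalised reads with TMP269 and to 55879 and 60730.1 with DMSO. The Th17 genes Rora, Ccr6 and Il23r were present in all 4 libraries. B cell markers were present too and lower with TMP269, and are given at the end.

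Of the 8 cytokine genes, Il17a, Il17f and Il24 were lower with TMP269, Il21 was higher, and Il22, Il10, Csf2 and Ifng did not pass the test. That made 4 of 8 called at an adjusted p under 0.05 by limma on log2(value + 1), where 27.5% of the 12535 tested genes were called. By direction, 1 of 8 was called higher against 12.8% of all tested genes, and 3 of 8 lower against 14.7%. The median log2 fold change of the 8 genes was -0.25, and that of all tested genes 0.00. The median of the 8 was -0.06 without TMP269 replicate 1, -0.39 without TMP269 replicate 2, -0.35 without DMSO replicate 1, -0.01 without DMSO replicate 2 and -0.15 with equal library totals. The groups did not overlap for 5 of the 8 genes, a share near that of all tested genes, 66.6%. All 8 passed the filter of at least 10 normalised reads in at least 2 libraries, Csf2 only through its TMP269 libraries. These are bulk libraries, in which fewer cells that make a cytokine and less of its RNA per cell cannot be told apart.

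**Figure D1:**
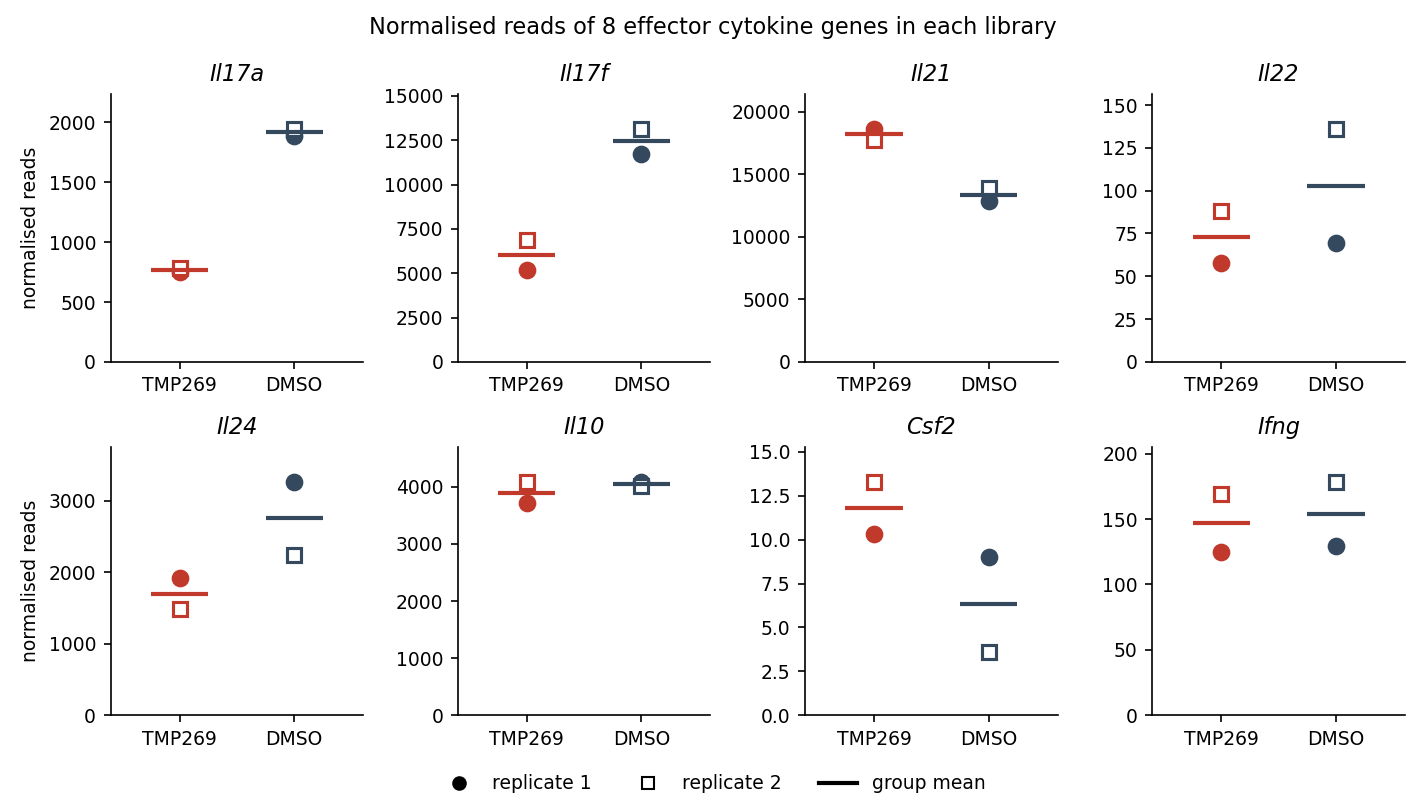
Normalised reads (vertical axes, from 0) of each of the 8 cytokine genes in the TMP269 and DMSO libraries, with filled circles for replicate 1, open squares for replicate 2 and a line at each group mean. Il17a, Il17f and Il24 lie lower with TMP269, Il21 lies higher, and the groups overlap for Il22, Il10 and Ifng.

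The IL-17 genes showed the 2 largest falls of the 8. Il17a had 750.4 and 786 normalised reads with TMP269, against 1888 and 1949 with DMSO. The groups were far apart, and the libraries within each differed by no more than a few percent, with a coefficient of variation of 3.32% with TMP269 and 2.26% with DMSO. The log2 fold change was -1.32 ± 0.08 (SE, n = 2 per group, limma adjusted p = 1.27e-04), a fall to 0.401-fold. Its 95% interval ran from -1.51 to -1.13.

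Il17f had 5159 and 6885 normalised reads with TMP269, against 11745 and 13165 with DMSO. Both TMP269 libraries lay below both DMSO libraries, but the TMP269 pair was spread more widely than for Il17a, with a coefficient of variation of 20.3% against 8.06% within DMSO. The log2 fold change was -1.06 ± 0.13 (SE, n = 2 per group, limma adjusted p = 0.00113, 95% interval -1.36 to -0.76), a fall to 0.479-fold. Both calls held under every other test, scaling, filter and pseudocount that was run and without any 1 of the 4 libraries. Without TMP269 replicate 1 the log2 fold change of Il17f was -0.85, and without TMP269 replicate 2 it was -1.27.

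The balance between the paired IL-17 genes was followed as a share of their reads. Il17f made up 87.3% (Wilson 95% interval 86.4% to 88.1%) and 89.7% (89.1% to 90.4%) of the summed Il17a and Il17f reads in TMP269 replicates 1 and 2. In DMSO replicates 1 and 2 it made up 86.2% (85.6% to 86.7%) and 87.1% (86.5% to 87.7%). These intervals cover counting error only. The groups did not overlap, but the intervals of TMP269 replicate 1 and DMSO replicate 2 did. The log2 ratio of Il17a to Il17f was -2.96 ± 0.25 with TMP269 and -2.70 ± 0.08 with DMSO (SD, n = 2 each). The difference of -0.26 was about the size of the SD within the TMP269 pair. An exact permutation test of 2 against 2 libraries cannot give a two-sided p below 0.333, the value found here, so it could not show a difference.

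The stretches of 250 bases before the start of both falling IL-17 genes, and of the rising Il21, are shown because the genes lie at 2 loci and changed in opposite directions. The sequences are from RefSeq, build GRCm38.p6, which is not the mm9 build named in the submitters' processing notes. Il17a is at chr1:20730655-20730904 on the plus strand, Il17f at chr1:20784271-20784520 on the minus strand and Il21 at chr3:37232637-37232886 on the minus strand. Each is written 5′ to 3′ along its gene, and capitals mark TGTGGT, the core bound by RUNX factors, on either strand.
Il17a: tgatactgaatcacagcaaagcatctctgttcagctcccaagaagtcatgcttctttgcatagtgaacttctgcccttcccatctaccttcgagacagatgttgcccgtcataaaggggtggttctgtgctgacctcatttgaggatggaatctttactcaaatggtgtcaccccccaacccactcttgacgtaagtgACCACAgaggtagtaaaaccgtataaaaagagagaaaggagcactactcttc
Il17f: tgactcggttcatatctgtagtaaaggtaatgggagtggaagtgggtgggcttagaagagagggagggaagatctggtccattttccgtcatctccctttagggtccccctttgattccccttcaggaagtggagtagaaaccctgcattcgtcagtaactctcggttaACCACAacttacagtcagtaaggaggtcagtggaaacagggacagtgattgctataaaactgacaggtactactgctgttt
Il21: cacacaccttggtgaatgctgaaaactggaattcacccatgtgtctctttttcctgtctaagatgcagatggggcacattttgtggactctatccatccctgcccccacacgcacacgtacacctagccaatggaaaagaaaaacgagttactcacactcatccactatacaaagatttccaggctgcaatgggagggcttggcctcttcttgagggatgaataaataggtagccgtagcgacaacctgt

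A window of this kind was matched for 6 of the 8 genes, the others being Il24 and Il10. Il17a and Il17f each held 1 TGTGGT, counting both strands, and the windows of Il21, Il22, Csf2 and Ifng held none. Of all 32851 windows of the same length in the table, 14.05% held TGTGGT. The match began 52 bases before the start of Il17a and 81 bases before that of Il17f. A further 4 motifs were searched on both strands. GGAAA, the core bound by NFAT, was found 3 times before Il21 and 2 times before Il17f, but not before Il17a. It was also found 2 times before Csf2 and 1 time each before Il22 and Ifng, and is common (55.6% of windows). TGANTCA, a looser form of the TGACTCA or TGAGTCA site bound by AP-1 factors, was found once, before Il17a (6.75% of windows). That match was TGAATCA, which is neither of these. TTCNNNGAA, bound by STAT factors, was found once, before Ifng (7.02% of windows). MEF2 factors are the best known partners of class IIa histone deacetylases, and bind sites with A or T at the 4 middle bases. A looser form, CTA and TAG with 4 bases of any kind between them, was searched. It was found in none of the 6 windows and in 3.20% of all windows. MEF2 sites with other ends were not searched. GGAAA can overlap TTCNNNGAA, but no matches overlapped in these 6 windows. Such matches describe the letters only and say nothing of whether a factor is bound.

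Il21 moved the other way from the IL-17 genes. It had 18654 and 17743 normalised reads with TMP269, against 12857 and 13877 with DMSO, and the groups were separate, with coefficients of variation of 3.54% and 5.39%. The log2 fold change was 0.45 ± 0.09 (SE, n = 2 per group, limma adjusted p = 0.00836, 95% interval 0.24 to 0.65), a rise of 1.36-fold. Without TMP269 replicate 1 it was 0.41 and no longer called (limma adjusted p = 0.0608). Under all other settings run, Il21 was called higher.

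The IL-10 family genes differed among themselves. Il24 had 1913 and 1484 normalised reads with TMP269, against 3265 and 2243 with DMSO. The groups were separate, but DMSO replicate 1 was well above DMSO replicate 2, and the coefficient of variation was 17.9% with TMP269 and 26.2% with DMSO. The log2 fold change was -0.68 ± 0.17 (SE, n = 2 per group, limma adjusted p = 0.0193, 95% interval -1.08 to -0.29), a fall to 0.623-fold. Il24 was not called with equal library totals (limma adjusted p = 0.0793), with equal totals after leaving out Rn45s (0.0634) or with DESeq2 on the recovered reads (0.113). Without DMSO replicate 1 the log2 fold change was -0.41 (limma adjusted p = 0.0430).

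Il10 had 3714 and 4087 normalised reads with TMP269, against 4089 and 4020.05 with DMSO. The groups overlapped, and the log2 fold change was -0.06 ± 0.08 (SE, n = 2 per group, limma adjusted p = 0.625). The 95% interval, -0.24 to 0.13, held the change of this deeply counted gene to a narrow range around 0. The sign turned with equal library totals (0.05), with equal totals after leaving out Rn45s (0.04) and without TMP269 replicate 1 (0.01).

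Il22 was counted at a low level, with 56 and 93 recovered reads in TMP269 replicates 1 and 2 and 77 and 113 in DMSO replicates 1 and 2. Scaled to library size it had 57.9 and 88.3 normalised reads with TMP269, against 69.3 and 136 with DMSO, and the groups overlapped. The log2 fold change was -0.44 ± 0.33 (SE, n = 2 per group, limma adjusted p = 0.353), with a 95% interval of -1.19 to 0.31. It moved with every library left out. It was -0.92 without DMSO replicate 1, the only such case in which Il22 was called lower (limma adjusted p = 0.0344), and 0.05 without DMSO replicate 2. Without TMP269 replicate 1 it was -0.14, and without TMP269 replicate 2 it was -0.74. Mouse Il22 has a near-identical neighbouring copy, Iltifb, with which reads could be shared. Iltifb was listed with 1.90 normalised reads in TMP269 replicate 2 and 0 in each other library, so reads of the copy may have been dropped or counted under Il22, and the count of Il22 is uncertain.

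Of the genes that mark pathogenic Th17 cells, neither Csf2 nor Ifng was called. Csf2 was at the edge of detection, with 10 and 14 recovered reads with TMP269 and 10 and 3 with DMSO. The exact Poisson 95% intervals of these counts were 4.80 to 18.4 and 7.65 to 23.5 with TMP269, and 4.80 to 18.4 and 0.619 to 8.77 with DMSO. All of them overlap. On the normalised scale Csf2 had 10.3 and 13.3 with TMP269, against 8.998 and 3.62 with DMSO. The log2(value + 1) fold change was 0.91 ± 0.54 (SE, n = 2 per group, limma adjusted p = 0.243, 95% interval -0.33 to 2.14), and it ranged from 0.35 to 1.46 with 1 library left out. No difference in Csf2 was detected, and the interval leaves room for a change in either direction.

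Ifng had 125 and 169 normalised reads with TMP269, against 129.6 and 179 with DMSO. The groups overlapped over most of their ranges, and the spread within each group was far wider than the gap between the group means. The log2 fold change was -0.06 ± 0.21 (SE, n = 2 per group, limma adjusted p = 0.847, 95% interval -0.55 to 0.42). Its sign turned with equal library totals (0.04), with equal totals after leaving out Rn45s (0.03), without DMSO replicate 2 (0.17) and without TMP269 replicate 1 (0.15).

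**Figure D2:**
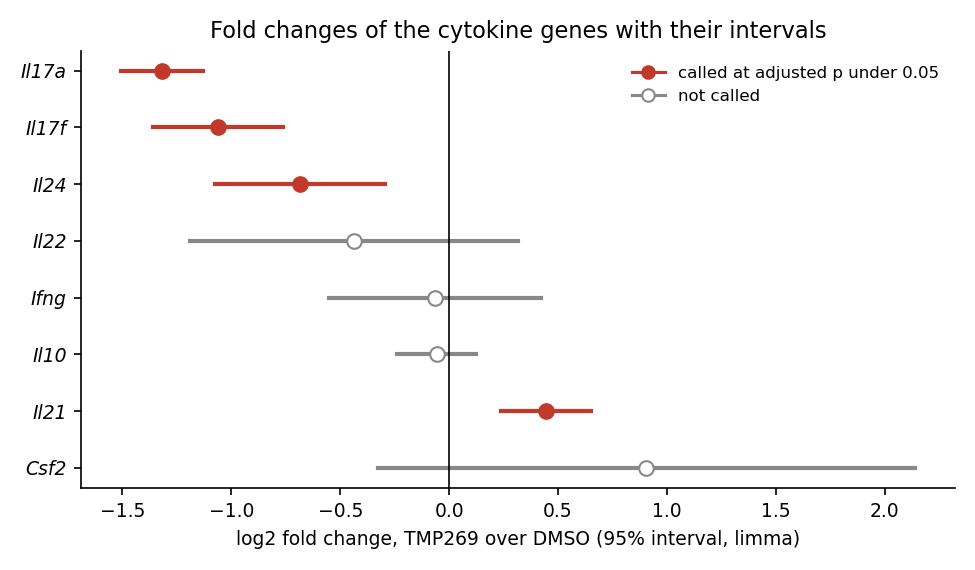
Log2 fold change of TMP269 over DMSO (horizontal axis) for each cytokine gene, with its 95% interval from limma, filled and red where called and open and grey where not. The intervals of Il17a (-1.51 to -1.13) and Il17f (-1.36 to -0.76) lie below 0, that of Il21 (0.24 to 0.65) above, and those of the scarce genes Il22 and Csf2 are the widest.

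The spread within groups was not counting error alone for Il17f, Il21, Il24, Ifng and Il22, nor for Il10 within TMP269. Il17f had a coefficient of variation of 20.3% with TMP269 and 8.06% with DMSO, where counting error alone gives 0.875% to 1.42% per library. Il24 had 17.9% and 26.2%, against 1.66% to 2.53% from counting. Il21 had 3.54% and 5.39%, against 0.732% to 0.932%. Il10 had 6.77% with TMP269 and 1.21% with DMSO, against 1.48% to 1.73% from counting. Ifng had a coefficient of variation of 21.2% with TMP269 and 22.5% with DMSO, where counting error alone gives 7.50% to 9.09% per library. For Il22 the corresponding values were 29.5% and 46.1%, against 9.41% to 13.4% from counting. For Csf2 counting error alone gives 26.7% to 57.7%, about as much as was seen. In both groups, replicate 2 had the higher value for 4 genes (Il17a, Il17f, Il22 and Ifng) and the lower value for Il24, while the order differed between groups for Il21, Il10 and Csf2.

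The makeup of the summed cytokine reads shifted from IL-17 towards IL-21. The 8 genes together had 30384 and 31255 normalised reads with TMP269, against 34052 and 35573 with DMSO. Il21 made up 61.4% and 56.8% of this sum with TMP269, against 37.8% and 39.01% with DMSO. Il17f made up 17.0% and 22.03% with TMP269, against 34.5% and 37.01% with DMSO, and Il17a made up 2.47% and 2.52%, against 5.54% and 5.48%. Il10 made up 12.2% and 13.1% with TMP269 and 12.01% and 11.3% with DMSO. Longer transcripts give more reads, and transcript lengths were not used here, so these shares compare a gene across libraries and not 1 gene with another.

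Ratios within a library do not depend on how libraries are scaled. Il21 had 3.62 and 2.58 normalised reads per Il17f read with TMP269, against 1.09 and 1.05 with DMSO. The log2 ratio of Il17f to Il21 was -1.61 ± 0.35 with TMP269 and -0.10 ± 0.04 with DMSO (SD, n = 2 each), a difference of -1.51. Il10 had 4.95 and 5.20 normalised reads per Il17a read with TMP269, against 2.17 and 2.06 with DMSO, and its log2 ratio was higher by 1.26. In both cases the groups were separate by several times the spread within them. By contrast, the log2 ratio of Il10 to Ifng was 4.74 ± 0.21 with TMP269 and 4.74 ± 0.34 with DMSO (exact permutation test, two-sided p = 1). Of the 12 ratios and shares compared, 9 reached the smallest two-sided p that an exact permutation test of 2 against 2 libraries can give, 0.333 (0.444 after Benjamini-Hochberg adjustment), so none could pass 0.05.

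**Figure D3:**
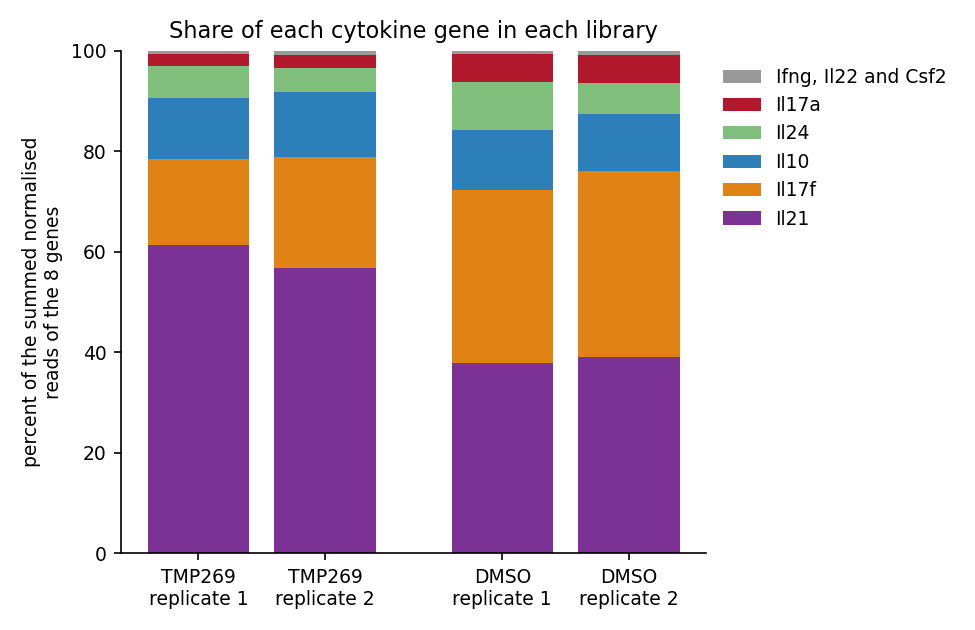
Stacked bars of the percent of the summed normalised reads of the 8 genes taken by each gene (vertical axis, 0 to 100) in each TMP269 and DMSO library. Il21 takes 56.8% to 61.4% with TMP269 and 37.8% to 39.01% with DMSO, and the Il17f and Il17a segments are smaller with TMP269.

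Receptor genes for these cytokines moved upward where they moved. Of 15 receptor genes, 11 were tested, of which 4 were called higher and 0 lower. Of all tested genes, 12.8% were called higher. The median log2 fold change was 0.42, against 0.00 for all tested genes. With 1 library left out the receptor median ranged from 0.28 to 0.41. It was 0.33 at a filter of 100 normalised reads in 2 libraries. The counts of receptor genes include Csf2rb2, which in mice encodes a receptor subunit for IL-3 and not for any of the 8 cytokines. It had 38.2 and 26.6 normalised reads with TMP269, against 15.3 and 8.44 with DMSO (limma adjusted p = 0.0324, but 0.116 with DESeq2). Il10rb, the shared receptor subunit of IL-10 and IL-22, had 1050.1 and 1204 normalised reads with TMP269, against 650 and 668 with DMSO (log2 fold change 0.77, limma adjusted p = 0.00131). Il21r, the receptor of IL-21, rose 1.37-fold alongside its ligand (limma adjusted p = 0.00493). Ifngr2, the signalling subunit of the interferon-gamma receptor, rose 1.33-fold (limma adjusted p = 0.0174). Leaving out TMP269 replicate 2 ended this call (0.130). The IL-17 receptor gene Il17ra had a log2 fold change of 0.03 (limma adjusted p = 0.822), and Il10ra, the IL-10-specific subunit, one of 0.08 (limma adjusted p = 0.742). The number called higher was 3 to 5 with any 1 library left out. Of 12 other genes of the IL-17 and IL-10 families, 5 were in the table, all too low to be tested.

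Among 37 other cytokine and chemokine genes, 26 were tested, with 11 called higher and 3 lower and a median log2 fold change of 0.63. Scarce genes weigh on this median, which was 0.44 with a pseudocount of 10. At a filter of 100 normalised reads in 2 libraries it was 0.24, with 18 tested, 8 called higher and 3 lower. Areg, counted among the 11 called higher, and Il15 passed the main filter only through their TMP269 libraries. The median was 0.36 without DMSO replicate 2, and 7 genes were called higher without TMP269 replicate 1. Tnf, the inflammatory cytokine gene, had 2719 and 2851 normalised reads with TMP269, against 1631 and 1824 with DMSO (log2 fold change 0.69, limma adjusted p = 0.00111). The T cell growth factor gene Il2 rose 3.39-fold and the chemokine gene Ccl4 2.07-fold (limma adjusted p = 1.27e-04 and 0.00112). Lif, which encodes an IL-6 family cytokine, fell as the IL-17 genes did, with 12399 and 11908 normalised reads with TMP269, against 18565 and 19758 with DMSO (log2 fold change -0.66, limma adjusted p = 0.00160). Tgfb3 fell to 0.376-fold (limma adjusted p = 0.0107), and Osm, a relative of Lif, to 0.821-fold (limma adjusted p = 0.0480). The Osm call was lost under most alternatives, among them equal library totals (limma adjusted p = 0.146) and DESeq2 (adjusted p = 0.108). Il9, a cytokine of T cells cultured with TGF-beta, had a log2 fold change of -0.02 (limma adjusted p = 0.873).

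Transcription factor genes known to act on these cytokines did not fall with Il17a and Il17f as a rule. Of 30, 29 were tested, with 10 called higher and 2 lower and a median log2 fold change of 0.18. The number called higher was 4 without DMSO replicate 2, and the median was 0.09 without TMP269 replicate 1 and 0.28 without TMP269 replicate 2. Maf, a factor that drives Il10 and Il21, rose 1.48-fold (limma adjusted p = 0.00226), and Nfatc1, a calcium-dependent factor of cytokine genes, 1.49-fold (limma adjusted p = 0.00188). Nfil3, which encodes a leucine zipper repressor, had 1567 and 1692 normalised reads with TMP269, against 3393 and 3019 with DMSO (log2 fold change -0.97, limma adjusted p = 3.15e-04). Ahr, the aryl hydrocarbon receptor that supports Il22, fell to 0.771-fold (limma adjusted p = 0.0393, but 0.0880 with equal library totals, 0.166 without DMSO replicate 2 and 0.246 without TMP269 replicate 1). Stat3, Irf4 and Batf, which act early in Th17 differentiation, did not pass the test, with log2 fold changes of -0.18, -0.09 and 0.20 (limma adjusted p = 0.160, 0.548 and 0.0907).

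Factors that act on the stability of cytokine mRNA were also followed. Of 13, all were tested, with 5 called higher and 2 lower and a median log2 fold change of 0.17. The number called higher was 8 with equal library totals and 3 without TMP269 replicate 1. The median was 0.27 with equal library totals, 0.10 without DMSO replicate 1 and 0.11 without TMP269 replicate 2. Rc3h2, which encodes Roquin-2, a repressor that binds stem-loops in mRNA, rose 1.38-fold (limma adjusted p = 0.00417), and Cpeb4, which encodes a cytoplasmic polyadenylation element binding protein, 1.62-fold (limma adjusted p = 7.45e-04). Zc3h12d, a relative of the Regnase-1 gene, rose 1.28-fold (limma adjusted p = 0.00997). Leaving out TMP269 replicate 1 ended this call (0.0697). Hnrnpd, which encodes the AU-rich element binding protein AUF1, had 4008 and 4021 normalised reads with TMP269, against 6041 and 6435 with DMSO (log2 fold change -0.63, limma adjusted p = 0.00104). Elavl1, which encodes the stabilising protein HuR, fell to 0.832-fold (limma adjusted p = 0.0415, but 0.126 with equal library totals and 0.212 without DMSO replicate 2).

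Of 15 receptor genes for cytokines that drive or restrain Th17 cells, 6 were called higher and 1 lower, with a median log2 fold change of 0.16. Leaving out TMP269 replicate 2 gave 2 called higher, and leaving out DMSO replicate 1 gave 3. The median was 0.08 without DMSO replicate 1, 0.25 without DMSO replicate 2 and 0.27 with equal library totals. The TGF-beta receptor genes Tgfbr2 and Tgfbr1 rose 1.63-fold and 1.32-fold (limma adjusted p = 8.21e-04 and 0.00888, the second 0.0605 without TMP269 replicate 2), and Il12rb1, a subunit of the IL-12 and IL-23 receptors, 1.49-fold (limma adjusted p = 0.00720). Il1r1, the IL-1 receptor gene, had 212 and 286 normalised reads with TMP269, against 344 and 525 with DMSO (log2 fold change -0.78, limma adjusted p = 0.0255, but 0.128 without DMSO replicate 2). Il6ra, which encodes the receptor of the IL-6 added to the culture, missed the threshold (0.14 on the log2 scale, limma adjusted p = 0.304). Il23r, the gene of the other IL-23 receptor subunit, had 106 and 131 normalised reads with TMP269, against 146 and 197 with DMSO. Its log2 fold change was -0.52 (limma adjusted p = 0.0872, but 0.00503 with the replicate number as a block).

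Genes reported as higher in pathogenic or in non-pathogenic mouse Th17 cells are given side by side, and the difference between these lists was not tested. Of 16 pathogenic genes, among them Il22 and Csf2, 15 were tested, with 5 called higher and 1 lower and a median log2 fold change of 0.26 (0.43 without TMP269 replicate 2). The galectin gene Lgals3 rose 3.28-fold (limma adjusted p = 3.93e-05) and the chemokine gene Ccl3 2.101-fold (limma adjusted p = 0.00198). Icos, which encodes a costimulatory receptor, dropped to 0.503-fold (limma adjusted p = 0.00503). Of 7 non-pathogenic genes, among them Il10, 4 were called higher and 1 lower, with a median log2 fold change of 0.27. The number called higher was 1 without DMSO replicate 2 and 2 without TMP269 replicate 1 or without TMP269 replicate 2. Beside Maf, these were the IL-1 receptor antagonist gene Il1rn, the IL-6 receptor subunit gene Il6st and the Ikaros family gene Ikzf3, which rose 1.51-fold, 1.23-fold and 1.20-fold (limma adjusted p = 0.0249, 0.0449 and 0.0356). None of these 3 calls held when DMSO replicate 2 was left out (0.112, 0.113 and 0.137).

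**Figure D4:**
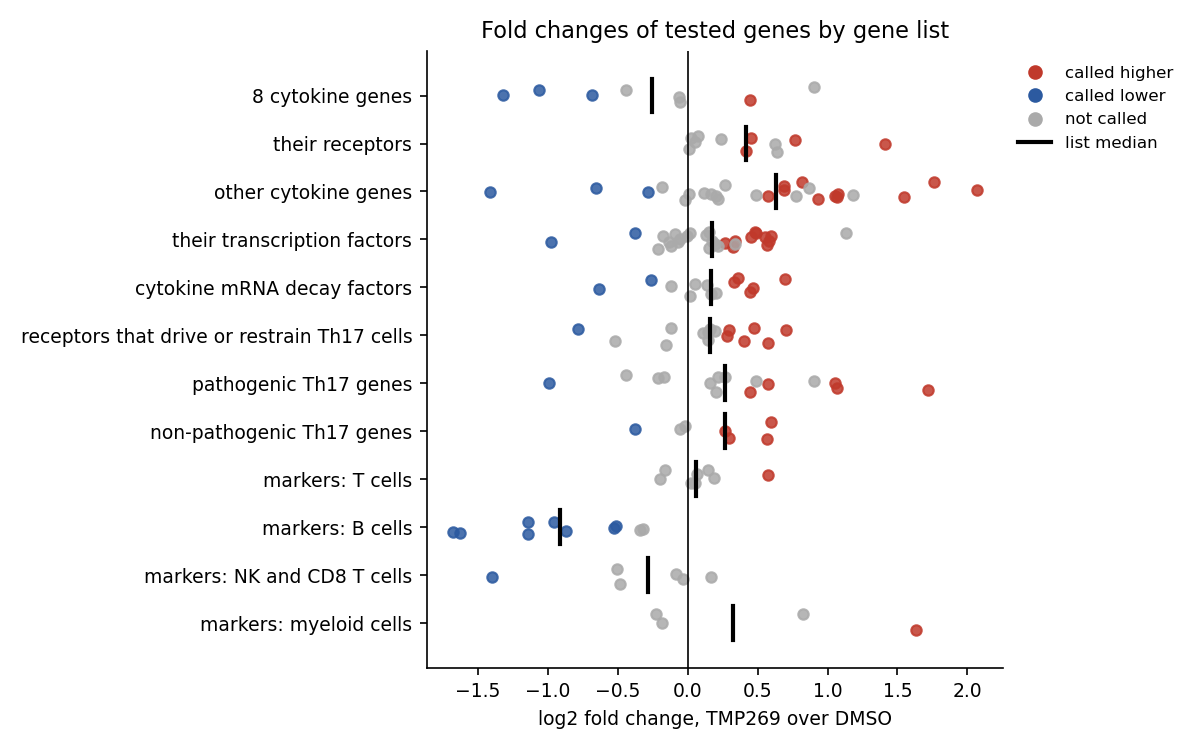
Log2 fold change of TMP269 over DMSO (horizontal axis) of each tested gene in 12 lists, with called genes in red (higher) or blue (lower), others in grey, and a bar at each list's median. The 8 cytokine genes have a median of -0.25 (-0.39 to -0.01 with 1 library left out) and their receptors 0.42 (0.28 to 0.41). The B cell markers have a median of -0.91.

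Several of these genes sit in clusters of cytokine genes. The 3 nearest protein-coding genes on each side of each gene, in the GRCm38.p6 gene order, gave 33 distinct neighbours outside the 8. Of these, 20 were tested, with 4 called higher and 4 lower. Over all tested genes, 12.8% were called higher and 14.7% lower. Beside Il17a and Il17f, which lie next to each other, the DNA replication gene Mcm3 was lower (log2 fold change -0.31, limma adjusted p = 0.0247, but 0.0826 with equal library totals and 0.180 without TMP269 replicate 2), and Paqr8 was not called. Il21 lies next to Il2, which had 2103 and 2236 normalised reads with TMP269, against 559.7 and 731 with DMSO. Another neighbour of Il21, 4932438A13Rik, rose 1.52-fold (limma adjusted p = 0.00126), while Cetn4, Bbs12 and Fgf2 on its other side were not called. Between Il24 and Il10 lie Il20 and Il19, with Il19 at 3.10 to 8.998 normalised reads, and on the far side of Il24 Faim3, listed there as Fcmr, was lower (log2 fold change -0.56, limma adjusted p = 0.0429). The Faim3 call was lost under most alternatives, among them DESeq2 (adjusted p = 0.155) and each library left out. Beside Il22 and Ifng, the called neighbours both lay on the side of Il22, where Mdm1 rose 1.34-fold and Nup107 fell to 0.733-fold (limma adjusted p = 0.0339 and 0.00377). Rap1b on the same side, and Dyrk2 and Cand1 on the side of Ifng, were not called. Leaving out DMSO replicate 2 (limma adjusted p = 0.127) or TMP269 replicate 1 (0.244) ended the Mdm1 call. Il3, the neighbour of Csf2, did not pass the test (0.20 on the log2 scale, limma adjusted p = 0.631). On the other side P4ha2, a prolyl hydroxylase of collagen, fell to 0.369-fold (limma adjusted p = 1.65e-04), and Pdlim4 rose 1.64-fold (limma adjusted p = 0.0270, and 0.173 when TMP269 replicate 2 was left out).

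**Figure D5:**
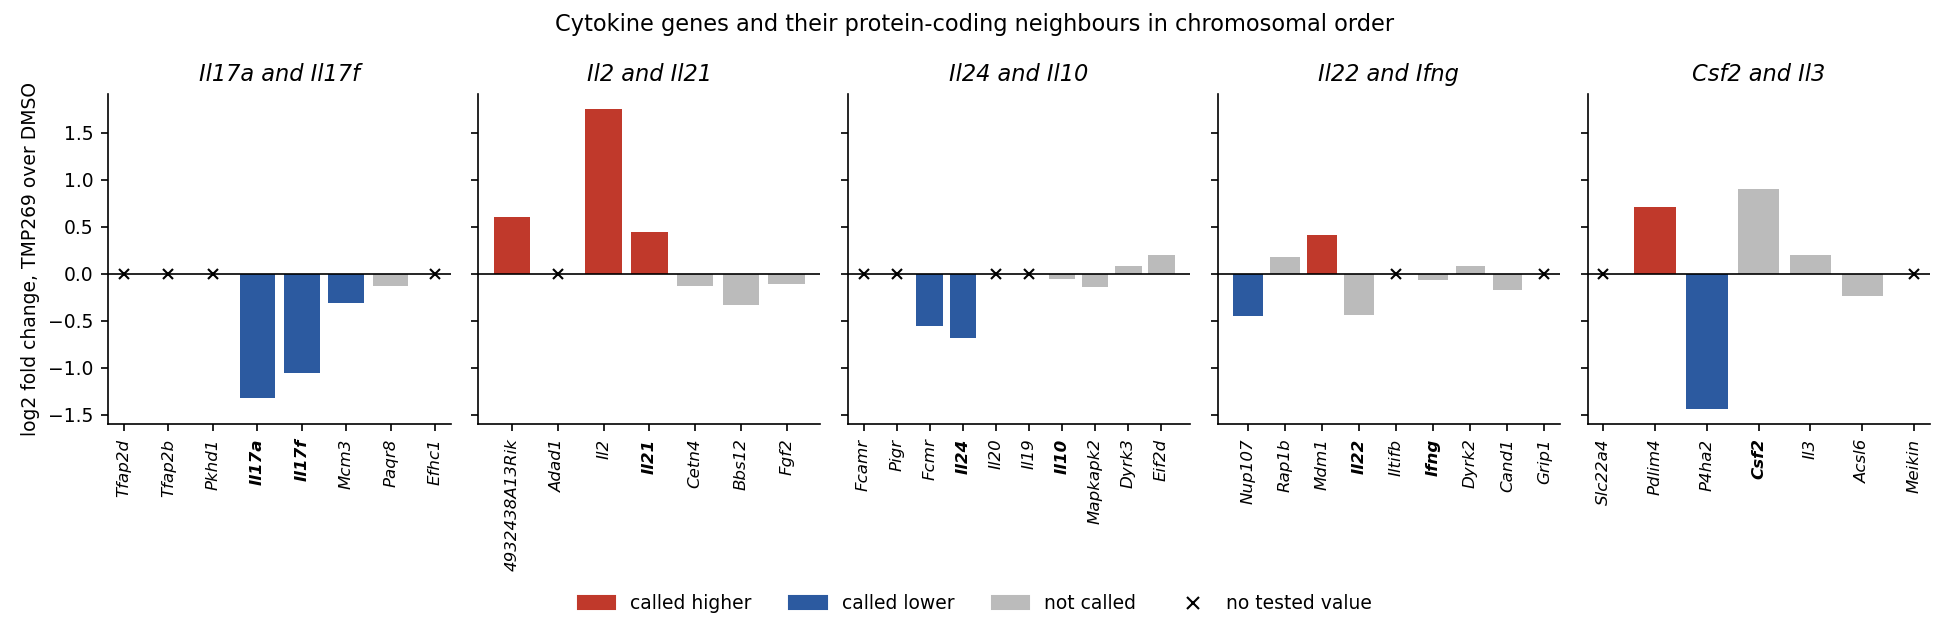
Log2 fold change of TMP269 over DMSO (vertical axis) of the cytokine genes (bold names) and their protein-coding neighbours at 5 loci, in chromosomal order and not to distance, with crosses for genes without a tested value. Il17a and Il17f fall side by side, Il21 and its neighbour Il2 both rise, and Il24 falls while Il10 stays near 0.

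Likeness of pattern was measured as the Euclidean distance between the log2 values of the 4 libraries, each gene centred on its own mean. Among named genes with a mean of at least 100 normalised reads, the 2 nearest to Il17a were Ccr1, a chemokine receptor gene, and Pecr, an enzyme gene of fatty acid metabolism, at distances of 0.087 and 0.118. The nearest to Il17f were Gbe1, the glycogen branching enzyme gene, and Bnip3, a mitophagy receptor gene known to respond to hypoxia, at 0.071 and 0.131. Those nearest to Il21 were Ski, a corepressor gene of TGF-beta signalling, and Primpol, at 0.025 and 0.030. For Il24 they were Tspan4 and Rnf208, at 0.017 and 0.067, and for Il10 Acot8 and Usp21, at 0.026 and 0.031. These distances rest on 4 libraries, in 2 groups.

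The genes nearest to the scarce cytokines were of other kinds. Those of Il22 were Mir6236 and Lars2 (0.143 and 0.148), and Lars2 had 46240 and 63598 normalised reads with TMP269, against 49250 and 94348 with DMSO, highest in DMSO replicate 2 like the Rn45s share. The nearest to Ifng was Cd8a, the CD8 T cell marker, at 0.039, followed by Pdcd10 at 0.054. Cd8a had 98.2 and 134 normalised reads with TMP269, against 101 and 136 with DMSO, and so was the higher in replicate 2 of each group, as was Ifng. The part of CD8 T cells in the Ifng reads was not tested. No gene was close to Csf2, the nearest being Cdh24 and Slc2a4rg-ps at 0.386 and 0.411.

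Markers of other cells that can make these cytokines moved as follows. The 10 B cell markers, a cell type that can make IL-10, summed to 2859 and 2855.02 normalised reads with TMP269, against 5181 and 5381 with DMSO, and 8 of the 10 were called lower. The log2 fold change of Il10 was -0.06. The part of B cells in the Il10 reads, or in the fall of any cytokine gene, was not tested. Of the 8 markers of NK and CD8 T cells in the table, which summed to 646 and 921 with TMP269 and to 791 and 1008 with DMSO, 6 were tested and 1, Klrc1, was called lower (log2 fold change -1.40, limma adjusted p = 0.00368). The NK-defining genes Klrb1c and Ncr1 were at 0 to 1.90 normalised reads. The 10 myeloid markers summed to 345 and 407 with TMP269, against 169 and 137 with DMSO, and most of this was Cd68, which rose 3.09-fold (limma adjusted p = 4.85e-04). Of the other 9, Itgax had 41.3 and 46.5 normalised reads with TMP269, against 28.8 and 20.5 with DMSO, and missed the threshold (limma adjusted p = 0.0709, but 0.0381 without DMSO replicate 1 and 0.0187 with the replicate number as a block). Lyz2 had 5.17 and 14.2 with TMP269, against 1.80 and 2.41 with DMSO, and Cd14 had 13.4 and 7.60 with TMP269, against 3.60 and 6.03 with DMSO, both too low to be tested. S100a8 and Mpo were at 0 to 1.80. The part of myeloid cells in the cytokine values was not tested. Of the gamma-delta T cell markers, Sox13 and Cd163l1 summed to 14.5 and 17.1 with TMP269, against 24.3 and 24.1 with DMSO. Il17a and Il17f are made by such cells too, and their part in the fall of those genes was not tested.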

How the data were processed

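RNA sequencing of 2 TMP269 and 2 DMSO libraries was analysed, and the 6 chromatin immunoprecipitation and input libraries were not analysed here. The table the authors deposited holds a normalised signal, read counts divided by 1 size factor per library (0.967 and 1.05 for TMP269, 1.11 and 0.829 for DMSO), since multiplying by that factor gave whole reads for 100% of values (tolerance 1e-06). The submitters' processing notes name mm9 as the build and, as tools, DESeq2, HTSeq, TopHat2 2.1.0, Bowtie2 and CASAVA 1.4. No source used here gives their roles, the annotation or the strand setting, so counts of overlapping genes and near-identical copies are uncertain.

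The main, two-sided test was that of limma 3.58.1 (R 4.3.3, eBayes with trend) on log2(value + 1). It covered the 12535 genes that reached 10 normalised reads in 2 or more libraries. Benjamini-Hochberg adjusted p-values ran over all tested genes. Fold changes on this scale understate those of low genes. Alternatives used edgeR 4.0.16, DESeq2 1.42.0 and limma-voom on recovered reads, other scalings, filters and pseudocounts, the replicate number as a block, and each library left out in turn, in which case the lone library is taken to vary as the other group does. Scripts were checked on simulated data. Genes, lists, the rule for named genes (all 8 cytokine genes, up to 3 called genes per list and direction by smallest p, neighbours and nearest patterns) and tests were chosen with earlier results of these data known. Il6st, Il10ra, Il17ra, Csf2rb2, Il9, Stat3, Irf4, Batf, Il6ra and Il19 were named, and values of Il23r given, after their values were seen. A gene that the rule names in the transcription factor list is not reported here.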

Additional observations from a re-analysis of the deposited data

How the results depend on the processing

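For Il17a, Il17f and Il21 the direction was the same under every alternative, and the 3 genes were called in all but 1 case, Il21 without TMP269 replicate 1. The counts of cytokine genes called were 1 higher and 3 lower in the main analysis, and with 1 library left out they ranged from 0 to 1 higher and from 3 to 4 lower, where the fourth was Il22. The count lower was 2 with equal library totals, with or without Rn45s, and with DESeq2, each time without Il24. Signs that turned were those of genes not called: Il10 with equal library totals (0.047), the same without Rn45s (0.038) and without TMP269 replicate 1 (0.011), Ifng in these settings (0.039, 0.031 and 0.15) and without DMSO replicate 2 (0.17), and Il22 without DMSO replicate 2 (0.045). With 1 library left out, the log2 fold change ranged from -0.13 to 0.011 for Il10, from -0.29 to 0.17 for Ifng and from -0.92 to 0.045 for Il22. The cause was not tested.

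Across all tested genes, 1602 were called higher and 1846 lower. Equal library totals shifted the median over all tested genes by 0.10 on the log2 scale, and 2145 were called higher and 1042 lower, so that higher genes made up 67.3% of calls, against 46.5%. The number lower was 1151 with equal totals without Rn45s, an alternative chosen after seeing the data. Leaving out 1 library at a time, 1063 to 1802 were called higher and 1015 to 1873 lower, the smallest counts without DMSO replicate 2. The replicate number as a block gave 3008 higher and 3352 lower and changed no call of the 8 cytokine genes (Il22 limma adjusted p = 0.0533). Same-numbered libraries deviated together (r = 0.371 across 12535 genes, which are not independent replicates), but the labels give no shared source, so they share only a number. Stricter filtering at 100 in 2 libraries left Il22 and Csf2 untested. Depth limits Csf2, with at most 14 reads per library, and Il22.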
